A study of Mus musculus with 28 samples.

Results

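Lung and esophagus endoderm of the mouse embryo were compared at E11.5, counted in days of embryonic development, as the ventral and the dorsal derivative of the anterior foregut. The members are the 6 arrays whose titles name E11.5 lung or E11.5 esophagus endoderm, 3 of each, out of 28 arrays in the series. Each sample was endoderm that had been dissected as an organ domain from 10 to 12 pooled embryos and sorted by flow cytometry, so an array averages over embryos and cell types of its domain. The labels give no strain, genotype or treatment for either group, and the sources used here do not give the antibody used for sorting. Arrays of E11.5 stomach endoderm, a neighbouring foregut domain, and of E8.25 definitive endoderm, the earlier tissue, are used as reference levels, 3 arrays each.

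Trachea, lung and esophagus form from one tube of foregut endoderm that is divided along its dorsal and ventral sides. The homeobox factor Nkx2-1 marks the ventral, respiratory side, which needs Wnt and BMP signals from the surrounding mesenchyme. The SRY-box factor Sox2 is high on the dorsal side, where the esophagus forms and later builds a stratified epithelium on a basal layer that expresses the p53 family factor Trp63. After separation, lung buds branch under FGF signalling at their tips, and tip cells express Sox9, Id2, Etv5 and the surfactant gene Sftpc. The question of the comparison, as far as the labels show it, is which transcripts tell these neighbouring endoderm domains apart.

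Values are log2 intensities after background correction and quantile normalization, and differences are lung minus esophagus, so a negative value is higher in esophagus. Errors are standard errors (SE) of a limma model over 28 arrays, with 3 lung and 3 esophagus arrays in the comparison. A gene was called at an adjusted p under 0.05 with at least a 2-fold difference, and detection on an array required a signal above the 99th percentile of 1362 probes for sensory receptors. Where a gene was detected on no array of its dim group, its fold is a lower bound, written "at least". In bulk samples such as these, fewer cells of a type and less RNA per cell cannot be told apart.

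Lung 1 stood apart from the other lung arrays. Across genes, lung 2 and lung 3 correlated at r = 0.9933, while lung 1 reached 0.9658 with its closest lung array and 0.966 with stomach 1. Lung 2 and lung 3 reached 0.9668 and 0.9677 with stomach 3, so a correlation of this size with stomach was not particular to lung 1. Among the lung arrays, only lung 1 correlated as highly with a stomach array as with its closest lung array. The esophagus arrays correlated with their closest partner at 0.9887 to 0.9949. Lung 1 also had no deposited intensity over 20000, unlike the other 5 arrays. Stomach 1 had none either. With this intensity class as a block in the fit, 799 genes were called, against 587 in the main fit, 554 of which were kept. Arrays over 20000 alone gave 810 calls and kept 546. Within the comparison, the trait cannot be told apart from lung 1 itself. Lung 1 differed by over 2-fold from the mean of lung 2 and lung 3 in 500 of the 9651 genes tested. Results that depend on it are therefore given with and without it.

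Of the 9651 genes tested, 218 were called higher in lung (2.26%) and 369 higher in esophagus (3.82%), together 587 (6.08%). The 3 lung arrays lay wholly above the 3 esophagus arrays in 20.9% of all genes tested and wholly below in 19.9%, or 40.8% in either direction. Among the calls, the arrays did not overlap for 215 of the 218 lung genes and for 364 of the 369 esophagus genes. A difference of at least 4-fold was reached by 46 genes higher in lung and 91 higher in esophagus, and 8-fold by 18 and 23. The dim tissue was below detection on all of its arrays for 32 of the genes higher in lung and 53 of those higher in esophagus.

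**Figure D1:**
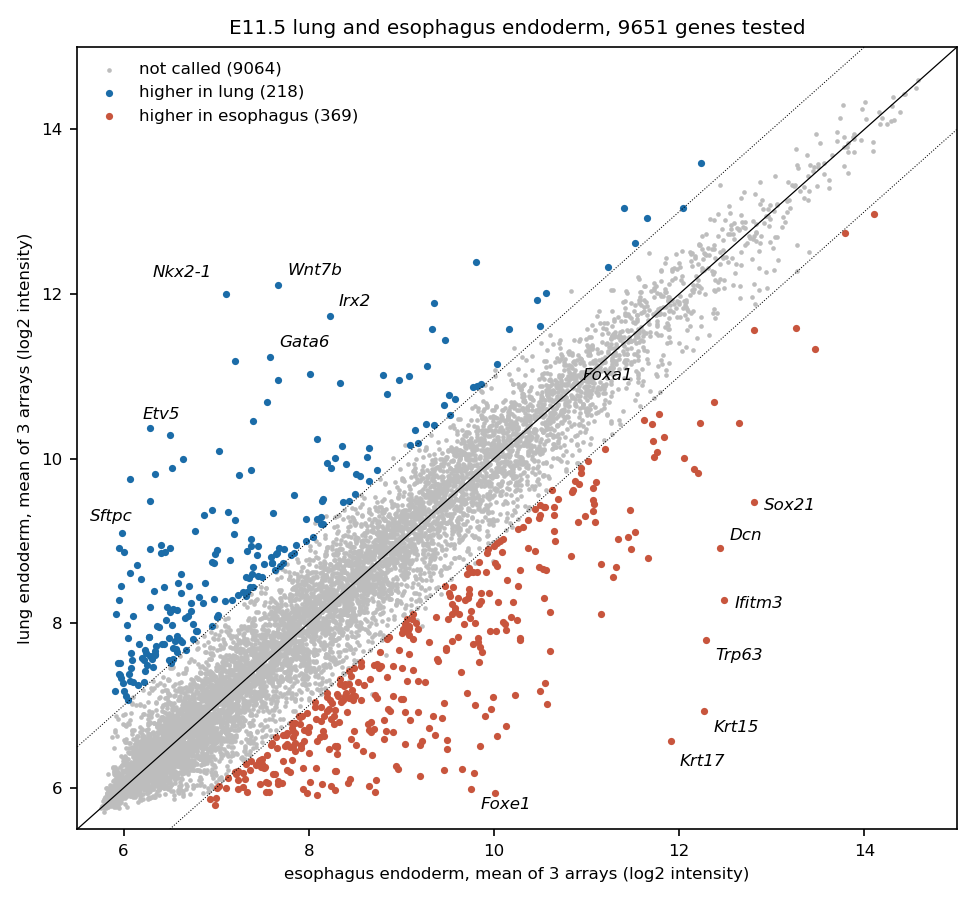
Mean log2 intensity of 3 lung arrays (vertical axis) against the mean of 3 esophagus arrays (horizontal axis), 1 point per gene tested. Blue points are the 218 genes called higher in lung, red points the 369 called higher in esophagus, the solid line marks equal levels and the dotted lines a 2-fold difference. Nkx2-1 and Wnt7b lie farthest above the line among the labelled genes, Krt15 and Krt17 farthest below it.

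Most epithelial and endoderm markers were detected in both tissues. Of 7 tested epithelial and endoderm markers, 0 were called by limma, 2 had an unadjusted p under 0.05, and Cdh1, Krt8, Krt18, Foxa1, Foxa2 and Cldn6 were detected on all 6 arrays. The other one, Sox17, known from early definitive endoderm, was detected on none of the 6. Foxa1, a pioneer factor of endoderm, read 10.70, 10.86 and 10.999 on lung arrays 1 to 3 and 11.30, 10.68 and 10.58 on esophagus arrays 1 to 3, with overlapping groups and a difference of -0.00 ± 0.39 (adjusted p = 0.999). Foxa2, its partner, differed by -0.25 ± 0.19 (adjusted p = 0.399). The 6 lung markers summed, on the linear scale, to 9450 to 14400 on the lung arrays and 1530 to 1570 on the esophagus arrays, and the 6 esophagus markers to 569 to 922 and 9070 to 14700. Of the 4 thyroid markers, Pax8, Tg and Tshr were detected on no array of either tissue. The other one, the homeobox gene Hhex, read 7.33, 6.82 and 6.82 in lung and was detected on no esophagus array, and it was not called (adjusted p = 0.00123).

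Promoters of 5 genes from the 2 programs are printed as reference sequence, to show the start sites of a lung factor, a tip factor and 3 genes of the basal layer that were high together in esophagus. Each runs from 250 bases before to 50 bases after the start site, from RefSeq on the build GRCm38.p6, and 131 of the 189 named genes that were called had such an entry. Capitals mark matches, on either strand, to 4 motifs that were searched: CTCAAG for Nkx2-1, TGTTTAC for forkhead factors, CATTGT for Sox factors and the TATA box TATAAA. The regions are Nkx2-1 at chr12:56536859-56537158, Etv5 at chr16:22439521-22439820, Krt5 at chr15:101712856-101713155, Krt14 at chr11:100205981-100206280 and Col17a1 at chr19:47691993-47692292, all on the minus strand.
Nkx2-1: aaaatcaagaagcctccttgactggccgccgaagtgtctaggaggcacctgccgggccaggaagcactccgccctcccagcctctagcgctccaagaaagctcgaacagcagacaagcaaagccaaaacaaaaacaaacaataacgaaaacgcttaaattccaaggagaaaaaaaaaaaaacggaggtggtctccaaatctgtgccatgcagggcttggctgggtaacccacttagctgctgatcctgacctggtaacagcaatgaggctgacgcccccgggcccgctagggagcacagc
Etv5: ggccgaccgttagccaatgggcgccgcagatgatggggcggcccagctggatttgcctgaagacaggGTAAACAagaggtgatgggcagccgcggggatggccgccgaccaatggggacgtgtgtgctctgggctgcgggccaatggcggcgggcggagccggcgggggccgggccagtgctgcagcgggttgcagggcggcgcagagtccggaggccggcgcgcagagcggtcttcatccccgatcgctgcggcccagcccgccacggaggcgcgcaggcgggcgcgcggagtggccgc
Krt5: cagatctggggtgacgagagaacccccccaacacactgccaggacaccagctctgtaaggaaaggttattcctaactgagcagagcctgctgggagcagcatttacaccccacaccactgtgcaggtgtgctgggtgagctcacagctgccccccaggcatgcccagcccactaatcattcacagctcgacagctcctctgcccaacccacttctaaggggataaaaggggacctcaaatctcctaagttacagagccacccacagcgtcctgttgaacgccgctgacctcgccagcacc
Krt14: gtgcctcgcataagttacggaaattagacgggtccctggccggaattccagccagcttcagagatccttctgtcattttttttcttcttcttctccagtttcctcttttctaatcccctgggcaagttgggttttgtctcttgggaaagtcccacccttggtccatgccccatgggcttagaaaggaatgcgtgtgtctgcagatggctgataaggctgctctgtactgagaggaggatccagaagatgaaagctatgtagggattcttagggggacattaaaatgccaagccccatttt
Col17a1: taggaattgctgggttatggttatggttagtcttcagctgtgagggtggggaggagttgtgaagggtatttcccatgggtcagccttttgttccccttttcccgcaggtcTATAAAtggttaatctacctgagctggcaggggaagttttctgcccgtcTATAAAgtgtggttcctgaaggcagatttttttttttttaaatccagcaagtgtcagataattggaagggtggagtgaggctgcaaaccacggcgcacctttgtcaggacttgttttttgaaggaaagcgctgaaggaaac

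These windows hold few of the motifs. The Etv5 window has 1 forkhead match, at position -183 from the start site, and the second Etv5 start site in the table, whose window lies at chr16:22438319-22438618, has 0 matches to any of the 4 motifs. The Col17a1 window has 2 TATA boxes, at -140 and -91. The Nkx2-1, Krt5 and Krt14 windows hold none of the 4 motifs. Of 32851 promoters of 300 bases in the table, 15.9% hold the Nkx2-1 motif, 3.65% the forkhead motif, 12.6% the Sox motif and 13.6% the TATA box.

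Nkx2-1 led the genes higher in lung. It read 12.71, 11.64 and 11.65 on the lung arrays and 7.35, 7.0 and 6.97 on the esophagus arrays, a difference of 4.89 ± 0.23 (29.7-fold, adjusted p = 1.29e-13). Lung 1 was the highest of the 3 lung arrays, all of which lay above the esophagus, and the difference without lung 1 was 4.54. Stomach read 6.00 to 6.17 and E8.25 endoderm 6.05 to 6.43 for this gene, below the esophagus arrays.

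Among the lung identity genes, 10 of 19 tested were called higher in lung and 1 higher in esophagus, with a median of 1.26 against 0.0086 over all genes tested. The zinc finger factor Gata6, which acts in branching and alveolar differentiation, read 11.44, 11.08 and 11.18 in lung and 7.83, 7.48 and 7.44 in esophagus (3.65 ± 0.15, adjusted p = 1.54e-14). Stomach lay between them at 9.96 to 10.53, and E8.25 endoderm at 8.69 to 8.87. Sftpc, the gene for surfactant protein C of the alveolar epithelium, read 8.76, 9.45 and 9.09 in lung and was detected on no esophagus array, at least 7-fold higher (adjusted p = 3.72e-14). The junction gene Cldn18 was at least 6.17-fold higher, with 8.67, 9.01 and 9.07 on the lung arrays. For the mucin gene Muc1 the bound was 2.62-fold on the probe used. Other detected Muc1 probes read lower, at 0.87, 0.89 and 1.23. The probe at 0.87 was detected on all arrays of both tissues and lay under the fold minimum.

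The Iroquois homeobox genes, patterning factors that lie in 2 clusters, were all higher in lung among the 4 that were followed. Irx2 read 11.73, 11.73 and 11.75 in lung and 8.0, 8.17 and 8.51 in esophagus (3.51 ± 0.21, adjusted p = 4.66e-12). Irx3 read 11.96, 11.89 and 11.85 in lung and 9.35, 9.15 and 9.56 in esophagus (2.54 ± 0.17, adjusted p = 5.49e-11). For both genes the lung arrays lay within a narrow range above every esophagus array. Irx1 was detected on no esophagus array and read 6.70, 8.03 and 7.84 in lung, at least 2.35-fold higher, with lung 1 lowest. Irx5 read 11.56, 10.30 and 10.47 in lung and 9.49, 9.54 and 9.51 in esophagus (1.26 ± 0.28, adjusted p = 0.00184). Without lung 1 its difference was 0.87, and the 2-fold minimum was no longer met.

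Other members of the lung list gave smaller values. Foxp2, a forkhead repressor of the lung epithelium, read 8.78, 8.12 and 8.45 in lung and 6.74, 6.73 and 6.66 in esophagus (1.74 ± 0.12). Its relatives Foxp1 and Foxp4 stood at -0.49 and 0.24 and were not called. Sftpb, for surfactant protein B, was detected on all 3 lung arrays and no esophagus array (adjusted p = 1.59e-05). Its measured means were 6.84 and 5.94, which gave no call, and the size of the difference is not measured where esophagus is below detection. Abca3, the lamellar body transporter, stood at 0.85 (adjusted p = 0.000375), under the fold minimum. The 1 member higher in esophagus was the epithelial ETS factor Elf5, at -1.58 ± 0.18, with a second detected probe at -0.84.

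Lung tip genes were divided. Of 16 tested, 6 were called higher in lung and 1 higher in esophagus, with a median of 0.27. Wnt7b, a ligand that the lung epithelium sends to its mesenchyme, read 12.08, 12.16 and 12.10 in lung and 8.14, 7.14 and 7.72 in esophagus (4.45 ± 0.30, 21.9-fold, adjusted p = 4.39e-11). A second detected Wnt7b probe read 2.52. Etv5, an ETS factor induced by FGF, read 10.06, 10.64 and 10.15 in lung and 6.57, 6.49 and 6.46 in esophagus (3.78 ± 0.20, 13.7-fold, adjusted p = 1.51e-12). In both cases no lung array came within 8-fold of an esophagus array. Id2, an inhibitor of bHLH factors, read 11.58, 10.26 and 10.50 in lung and 9.21, 8.75 and 8.59 in esophagus (1.93 ± 0.32, adjusted p = 7.8e-05), or 1.53 without lung 1.

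Several genes known for their role at the tip did not pass the test. Sox9, which lung tip progenitors need, read 9.37, 9.42 and 9.22 in lung and 8.76, 9.22 and 9.03 in esophagus (0.33 ± 0.14, adjusted p = 0.0928), with the lowest lung array just above the highest esophagus array. Etv4, the close relative of Etv5, read 7.09, 7.15 and 7.03 against 6.48, 6.51 and 6.37 (0.64 ± 0.34, adjusted p = 0.201), also with no overlap between the tissues. The FGF feedback phosphatase Dusp6 stood at -0.37 and the feedback inhibitor Spry4 at 0.07. Igfbp5, for an insulin-like growth factor binding protein, was the member higher in esophagus, at -1.14 ± 0.25.

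**Figure D2:**
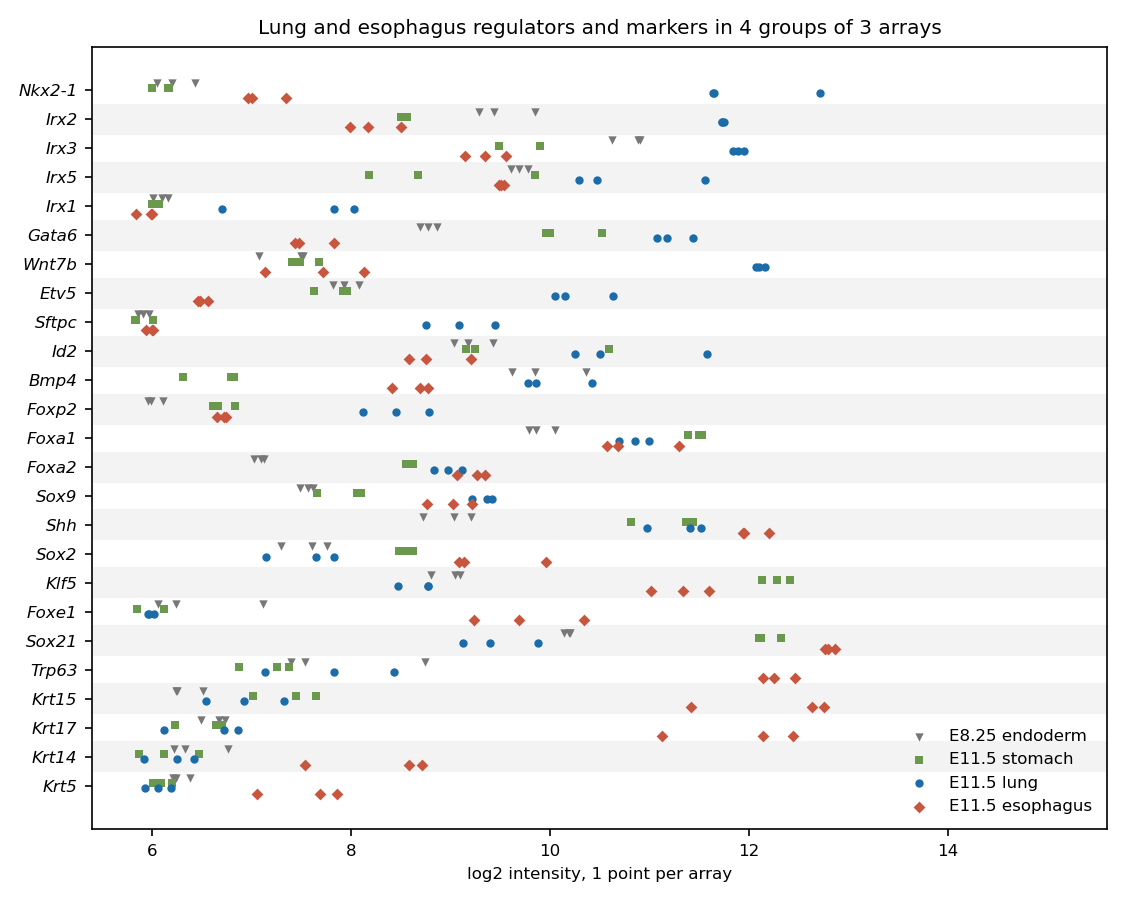
Log2 intensity of 25 genes on each of 3 arrays of E8.25 endoderm, E11.5 stomach, E11.5 lung and E11.5 esophagus, 1 point per array, with genes in rows. From Nkx2-1 to Foxp2 the lung points lie to the right of the esophagus points, from Shh to Krt5 to the left of them, and for Foxa1 and Foxa2 the points of both tissues mix.

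The airway list had 5 tested members, 3 of them higher in esophagus and 1 higher in lung (median -1.04). The 3 were Sox2, the Notch target Hey1 and the claudin gene Cldn10, all of which are expressed outside the airway as well. Tppp3, a tubulin-binding protein of ciliated cells, was at least 2.34-fold higher in lung. Foxj1, the ciliated cell factor, stood at 0.12. Cldn10 read 9.47, 10.67 and 10.51 in lung and 11.66, 12.18 and 11.32 in esophagus (-1.51 ± 0.32).

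In esophagus, keratins and Trp63 led. Of 23 tested esophagus identity genes, 19 were called higher in esophagus and 0 higher in lung, with a median of -2.08. Krt15, a keratin of basal cells, read 6.54, 6.93 and 7.33 in lung and 12.76, 12.64 and 11.42 in esophagus (-5.33 ± 0.24, 40.3-fold, adjusted p = 5.18e-14). Krt17, another basal keratin, was detected on 2 of 3 lung arrays, at 6.12, 6.73 and 6.87, and read 12.15, 12.44 and 11.13 in esophagus (-5.34 ± 0.22, adjusted p = 2.9e-14). For both keratins esophagus 3 was the lowest esophagus array, still far above each lung array.

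Trp63, which basal cells of stratified epithelia depend on, read 7.14, 7.83 and 8.43 in lung and 12.47, 12.25 and 12.14 in esophagus (-4.49 ± 0.29, 22.4-fold, adjusted p = 1.96e-11). It was detected on all 3 lung arrays, with lung 1 lowest, and without lung 1 the difference was -4.15. Stomach read 6.88 to 7.38, and E8.25 endoderm 7.40 to 8.75, near the lung level. Krt14, the keratin partner of Krt5, was detected on 1 of 3 lung arrays and read 8.58, 8.72 and 7.54 in esophagus (-2.08 ± 0.23). Krt5 was detected on no lung array and read 7.86, 7.69 and 7.06 in esophagus, at least 2.22-fold higher.

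Among the dorsal foregut factors, Sox2 and Sox21 differed less than Trp63. Sox2, which the esophagus needs to separate from the trachea, read 7.15, 7.65 and 7.83 in lung and 9.08, 9.14 and 9.96 in esophagus (-1.85 ± 0.26, adjusted p = 7.02e-06). The arrays did not overlap, and stomach lay between them at 8.48 to 8.62. A second Sox2 probe, detected on all 3 arrays of each tissue, read -2.85. Sox21, a relative of Sox2, read 9.40, 9.13 and 9.88 in lung and 12.80, 12.87 and 12.76 in esophagus (-3.34 ± 0.46, adjusted p = 6.23e-06), with stomach at 12.10 to 12.32. Other detected Sox21 probes read -1.55 and -2.37. Pax9, a factor of pharynx and esophagus, was detected on 3 esophagus arrays and no lung array (adjusted p = 4.67e-06). Its measured means were 5.92 in lung and 6.54 in esophagus, which gave no call, and the size of the difference is likewise not measured. Nog, the BMP antagonist of the dorsal foregut, was detected on no array of either tissue (adjusted p = 0.397).

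Further transcription factors were higher in esophagus. Foxe1, a forkhead factor of the thyroid and pharynx, read 10.34, 9.69 and 9.23 in esophagus and was detected on no lung array, at least 10.3-fold higher (adjusted p = 2.26e-12). Foxq1, another forkhead factor, read 6.68, 6.99 and 7.39 in lung and 10.65, 10.80 and 10.26 in esophagus (-3.55 ± 0.21, adjusted p = 5.06e-12). All esophagus arrays lay above the lung arrays for both genes. Klf5 and Klf4, zinc finger factors of proliferating and differentiating epithelium, differed by -2.64 ± 0.23 and -2.56 ± 0.18. Other detected Klf4 probes read -0.62 and -1.23. Klf5 read 11.60, 11.34 and 11.02 in esophagus, and the stomach arrays lay above these, at 12.13 to 12.42. The AP-2 factors Tfap2c and Tfap2a, Pitx1 and the skin barrier factor Grhl3 were higher as well, the last 3 with no lung array detected.

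Markers of mesenchyme moved with these genes. The 29 mesenchyme markers on the array summed, on the linear scale, to 3320 to 4810 on the lung arrays and 11000 to 13200 on the esophagus arrays, with 11 to 15 and 19 to 23 of them detected. Of 25 tested, 8 were called higher in esophagus and 1 higher in lung, with a median of -0.31. Their part in the other results was not tested. Dcn, a proteoglycan of connective tissue, read 8.12, 8.96 and 9.67 in lung and 12.25, 12.43 and 12.66 in esophagus (-3.53 ± 0.29), and Acta2, for smooth muscle actin, read 7.82, 9.49 and 8.84 in lung and 11.84, 11.60 and 10.02 in esophagus (-2.43 ± 0.43), with 3 further detected probes of Acta2 at -0.23, -0.52 and -1.39. These 2 genes carried most of the sum in esophagus. Others higher in esophagus were Lum, Twist1, Pdgfra, Zeb2, Col3a1 and Col6a1, while Vim, an intermediate filament of mesenchyme, was higher in lung (1.22 ± 0.26). Leaving out 1 array ended the call of Vim, at 0.97 without lung 2, and of Col3a1, with adjusted p = 0.0729 without esophagus 1 and 0.0512 without esophagus 2. Of the 29, 6 were detected on none of the 6 arrays, namely Col1a2, Postn, Tagln, Thy1, Tbx4 and Tbx5. Lum, Twist2, Prrx1 and Pdgfrb were detected on all 3 esophagus arrays and no lung array. Col1a1, for fibrillar collagen, was detected on 3 esophagus and 2 lung arrays, as was Tcf21, and Col5a1 on all 6.

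**Figure D3:**
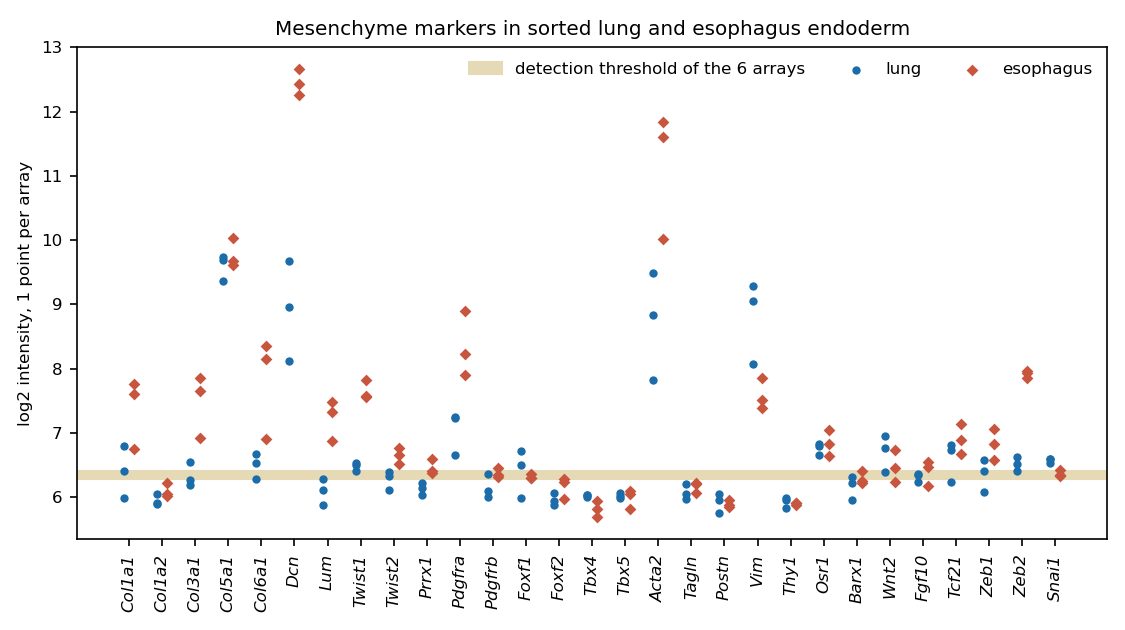
Log2 intensity of the 29 mesenchyme markers on the array (vertical axis), tested or not, on 3 lung and 3 esophagus arrays, 1 point per array, with the band showing the detection thresholds of the 6 arrays. Dcn and Acta2 stand highest in esophagus, Vim is higher in lung, and Col1a2, Postn, Tagln, Thy1, Tbx4 and Tbx5 lie at or under the band.

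Markers of other cell types were summed in the same way. The lists differ in length and include undetected probes, so their sums are compared between tissues and not between cell types. Endothelial markers summed to 1550 to 2080 in lung and 1330 to 1420 in esophagus, with Esam the 1 called gene of 13 tested, higher in lung (1.58 ± 0.24). Whether called or not, 12 of the 13 were measured higher in lung and 1 lower (median 0.09). Plvap, Emcn and Robo4 were detected on 2 lung arrays and no esophagus array, Egfl7 on all 6 arrays, and 10 of the 16 on the array, Pecam1, Kdr and Cdh5 among them, on none. Erythroid markers summed to 1230 to 2320 and 949 to 1570, and leukocyte markers to 789 to 859 and 735 to 1090, with 0 of 7 called by limma in each list and 0 and 1 at an unadjusted p under 0.05. Neural crest and neuron markers summed to 1180 to 1290 in lung and 1650 to 1740 in esophagus. There Map2, a microtubule protein of neurons, was called higher (-1.04 ± 0.15), or -0.99 without lung 2 or esophagus 3, under the fold minimum. Nefm, Gap43 and Elavl4 were detected on all 3 esophagus arrays and no lung array. Ret went the other way, with all 3 lung arrays and no esophagus array. Of the 9 tested, 5 had an unadjusted p under 0.05 by limma. Liver and intestine lists had 0 of 18 and 0 of 9 members called by limma, beside 6.08% of all genes tested, and 3 and 0 at an unadjusted p under 0.05. Liver markers were uneven among the esophagus arrays, with sums of 1840, 1580 and 2540 on esophagus 1 to 3. Of the 21 on the array, 3 to 13 were detected per esophagus array. In lung the sums were 1810 to 2100, with 6 to 8 detected. The pancreas list had 1 of 10, Rbpjl, an acinar factor, which read 8.58, 8.18 and 8.09 in lung and was detected on no esophagus array, at least 3.99-fold higher.

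Hemidesmosome genes, whose products anchor basal cells to the matrix, were among those higher in esophagus. Of 11 tested genes of desmosomes and hemidesmosomes, 4 were higher in esophagus and 1 in lung (median -0.84). Col17a1, the hemidesmosomal collagen, was detected on no lung array and read 10.19, 10.21 and 8.96 in esophagus, at least 10.6-fold higher. Itgb4, its integrin partner, read 7.72, 8.38 and 8.31 in lung and 10.86, 10.72 and 10.24 in esophagus (-2.47 ± 0.27), and the linker gene Dst differed by -1.79 ± 0.22. Other detected Dst probes read -0.86 and -0.47. The fourth, Bnc1, is a zinc finger factor of basal keratinocytes rather than a junction protein (-1.69 ± 0.13). Itga6 and Plec, further hemidesmosome genes, stood at -0.85 (adjusted p = 0.0283) and -0.80 (adjusted p = 0.0512) and were not called, and the desmosomal plaque gene Pkp2 was higher in lung by 1.03 ± 0.16, or 0.98 without lung 1 and 0.97 without esophagus 2. Col7a1, which anchors the basement membrane below, was higher in esophagus (-2.14 ± 0.18).

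Stratified keratins and envelope genes had 5 of 12 tested members higher in esophagus and 0 in lung (median -0.78). Beside the 4 basal keratins this was Sfn, a 14-3-3 protein of stratified epithelium, at least 5.07-fold higher. Whether called or not, 10 of the 12 were measured higher in esophagus and 2 higher in lung, and 8 had an unadjusted p under 0.05 by limma. Among the 7 not called, Krt10, Lor and Tgm1, genes of later differentiation, were measured higher in esophagus. They passed the p threshold but not the fold minimum. Krt10 stood at -0.74 (adjusted p = 0.0017) and the envelope gene Lor at -0.67 (adjusted p = 0.0213). The crosslinking enzyme gene Tgm1 (adjusted p = 0.000131) was detected on 3 esophagus arrays and no lung array, so the size of its difference is not measured. Krt19, a simple keratin, was also higher in esophagus (-1.87 ± 0.24). The bladder plaque genes Upk1b and Upk2 were higher by at least 12.3-fold for Upk1b and 7.04-fold for Upk2, Upk1b with 10.97, 9.37 and 9.68 on the esophagus arrays and detection on no lung array.

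Junction and polarity genes went both ways. Of 20 tight and adherens junction genes tested, 2 were higher in lung and 2 higher in esophagus (median -0.02), beside 6.08% called over all genes tested, and all 4 were claudins. Cldn3 (1.30 ± 0.18) and Cldn18 were higher in lung, and Cldn23 (-2.72 ± 0.13) and Cldn10 in esophagus. An unadjusted p under 0.05 was reached by 10 of the 20. Among those not called, Marveld3 (0.50, adjusted p = 0.00286), Crb3 (0.52, adjusted p = 0.0474), the adherens junction gene Ctnnb1 (-0.68, adjusted p = 0.0182) and Cldn1 (adjusted p = 0.0114, detected on no lung array) passed the p threshold but not the fold minimum. The general epithelial regulators had 1 of 18 higher in lung, the serine protease Tmprss2 (1.02 ± 0.16), and 2 higher in esophagus, Grhl3 and Elf5. Tmprss2 missed the fold minimum at 0.99 without lung 1 and 0.91 without esophagus 2.

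**Figure D4:**
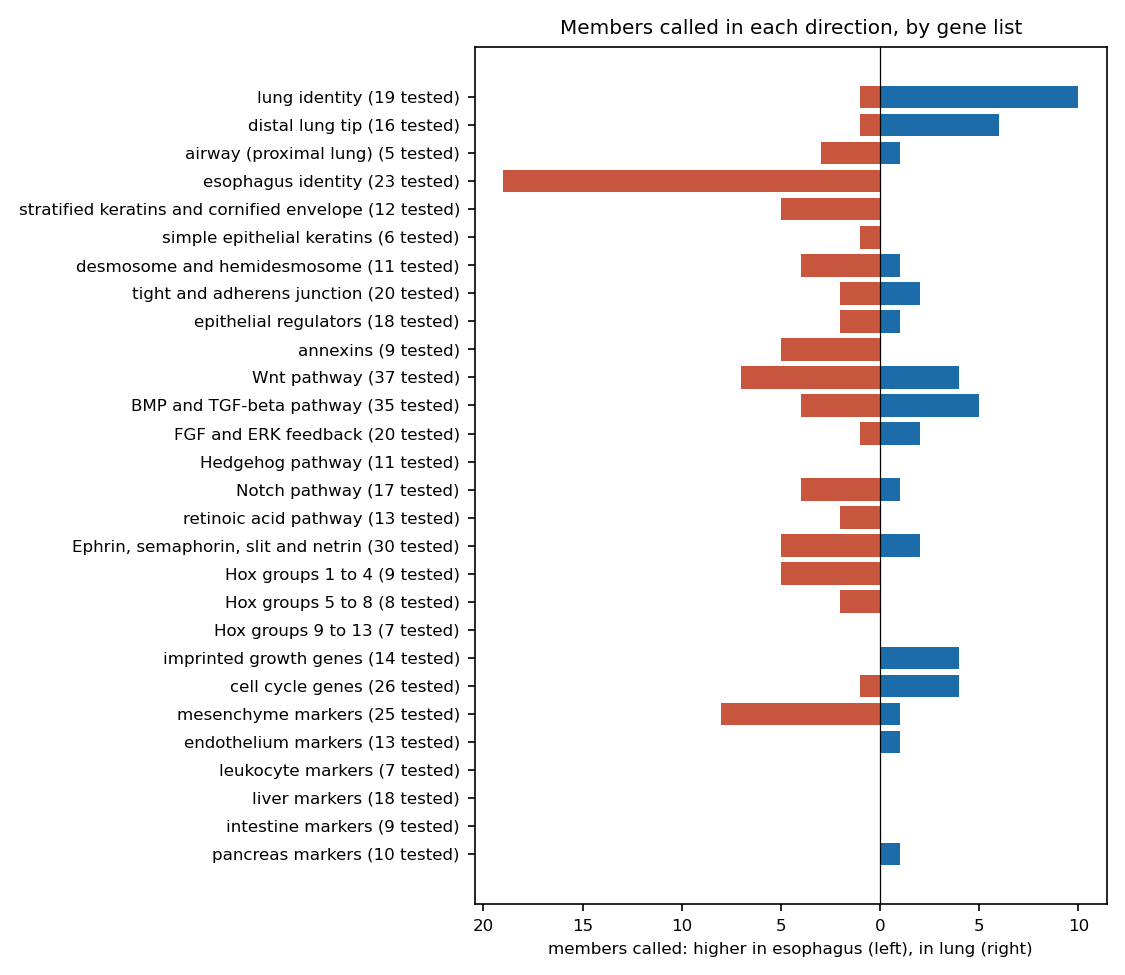
Number of members called in each gene list, with bars to the left for genes higher in esophagus and to the right for genes higher in lung, and the number tested beside each name. Lung identity has 10 members to the right and esophagus identity 19 to the left, while the Wnt, BMP and TGF-beta, FGF and Notch lists have members on both sides. The Hedgehog list, like some other short lists, has none, where 6.08% of all genes tested were called.

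Wnt pathway genes went both ways. Of 37 tested, 4 were higher in lung and 7 higher in esophagus, with a median of -0.03. Of the ligands, Wnt7b was higher in lung, and Wnt4 (-1.49 ± 0.16) and Wnt5b (-1.27 ± 0.13) in esophagus. Sp5, a transcriptional target of Wnt signalling, read 11.22, 10.96 and 10.91 in lung and 7.70, 7.52 and 8.80 in esophagus (3.02 ± 0.28, adjusted p = 1.55e-08). Porcn, the enzyme that lipidates Wnt ligands, and the receptor Ror2 were higher in lung by 1.34 ± 0.26 and 1.75 ± 0.20. Axin2, another target, stood at 0.65 (adjusted p = 0.00092), under the fold minimum.

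The secreted antagonists of the pathway that were called were all higher in esophagus. Sfrp1 read 6.96, 7.21 and 7.08 in lung and 9.53, 8.97 and 8.47 in esophagus (-1.91 ± 0.29), and Sfrp2 differed by -1.49 ± 0.29. Dkk3, of the Dickkopf family, read 7.10, 6.92 and 7.07 in lung and 9.77, 9.44 and 9.18 in esophagus (-2.43 ± 0.16). Of the Frizzled receptors, Fzd10 and Fzd6 were higher in esophagus (-1.27 ± 0.27 and -1.44 ± 0.18). Fzd7 at 0.98 and Fzd1 at -0.99 lay just under the fold minimum, on opposite sides.

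BMP and TGF-beta genes had 5 of 35 members higher in lung and 4 higher in esophagus (median -0.18). Bmp4, the BMP ligand of the ventral foregut and lung tips, read 10.43, 9.78 and 9.86 in lung and 8.77, 8.70 and 8.41 in esophagus (1.40 ± 0.21, adjusted p = 1.87e-05). Bmp7, a related ligand, went the other way, with 8.05, 7.88 and 7.85 in lung and 9.12, 9.16 and 8.77 in esophagus (-1.09 ± 0.15, adjusted p = 8.1e-06). The 2 ligands thus pointed in opposite directions, each without overlap between the tissues. Chrd, a BMP antagonist, was higher in lung (1.90 ± 0.25), and the receptor Acvr1 and the bHLH inhibitor Id4 in esophagus (-1.14 ± 0.18 and -1.14 ± 0.21).

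Within the TGF-beta branch, Tgfb2 read 11.54, 10.63 and 10.70 in lung and 7.87, 7.67 and 7.45 in esophagus (3.29 ± 0.26, adjusted p = 6.26e-10). Its receptor gene Tgfbr2 was higher in lung too, at 1.29 ± 0.17. Inhbb, which encodes a subunit of activin, was higher in esophagus, with 6.79, 6.52 and 6.73 in lung and 8.72, 8.82 and 9.19 in esophagus (-2.23 ± 0.12). None of the 5 SMAD signal transducers tested, Smad1 to Smad5, was called, with values from -0.29 to -0.11.

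FGF signalling genes had 2 of 20 higher in lung, Etv5 and the decoy receptor Fgfrl1 (1.11 ± 0.13), and 1 higher in esophagus, Fgf13 (-2.21 ± 0.16, with a second detected probe at -0.45), an intracellular member of the FGF family that is not secreted. Fgfr2, the epithelial receptor for FGF10, stood at -0.02. Of 11 Hedgehog genes, 0 were called by the limma model, beside 6.08% of all genes tested, and 2 had an unadjusted p under 0.05. Shh, the ligand that the foregut epithelium secretes, read 10.98, 11.41 and 11.52 in lung and 11.95, 11.95 and 12.20 in esophagus (-0.73 ± 0.20, adjusted p = 0.00877). Its arrays did not overlap, but the difference stayed under the fold minimum. A second Shh probe, detected on all 6 arrays, read -1.03, past that minimum, and the receptor Ptch1 stood at 0.13.

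Notch genes had 4 of 17 members higher in esophagus and 1 higher in lung (median -0.28). The ligand Jag1 was detected on 1 of 3 lung arrays, at 6.95, 6.14 and 6.24, and read 7.88, 7.83 and 7.85 in esophagus (-1.41 ± 0.26), and Jag2 was at least 2.13-fold higher. Nrarp, a target that dampens Notch signalling, read 7.78, 8.26 and 8.19 in lung and 10.01, 10.45 and 10.09 in esophagus (-2.11 ± 0.17, adjusted p = 1.51e-09). Hey1 was higher by a smaller amount (-1.04 ± 0.15) and missed the fold minimum at -0.98 without lung 1, -0.97 without esophagus 1 and -0.94 without esophagus 2. Dtx4, a ubiquitin ligase of the pathway, was higher in lung (1.45 ± 0.17). The receptors for retinoic acid Rarb (-1.58 ± 0.31, with other detected probes at -0.19 and -0.94) and Rarg (-1.12 ± 0.11, with another at -0.51) were higher in esophagus. They were the 2 called of 13 retinoic acid genes, beside 6.08% of all genes tested. Aldh1a2, the synthesizing enzyme, stood at 0.05.

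Anterior Hox genes, which record position along the body axis, were higher in esophagus. Of 9 tested genes of groups 1 to 4, 5 were called there and 0 in lung (median -1.08), and the other 4 were detected on no array of either tissue. Hoxb4 read 8.44, 7.49 and 7.79 in lung and 9.87, 10.00 and 10.21 in esophagus (-2.12 ± 0.25), and Hoxa2 differed by -1.97 ± 0.19. In groups 5 to 8, 2 of 8 were called, both higher in esophagus. Hoxc6 was detected on 2 of 3 lung arrays, at 6.06, 7.58 and 7.90, and read 10.10, 10.59 and 10.80 in esophagus (-3.31 ± 0.43), or -2.76 without lung 1. Hoxa5 read 6.91, 8.49 and 8.59 in lung and 9.62, 9.86 and 9.54 in esophagus (-1.68 ± 0.38), or -1.13 without lung 1, and Hoxb5 stood at 0.67, not called. Of groups 9 to 13, 0 of 7 were called by limma, and 0 had an unadjusted p under 0.05. The Hox cofactors Meis1 and Meis2 were higher in esophagus as well (-2.32 ± 0.22 and -2.58 ± 0.17).

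Guidance cues, which steer migrating cells and axons, had 5 of 30 members higher in esophagus and 2 in lung (median 0.06). The slit receptor Robo1 read 9.0, 8.57 and 8.90 in lung and 10.92, 10.79 and 10.79 in esophagus (-2.01 ± 0.20). The ephrin gene Efna5 and the semaphorin genes Sema3f and Sema3a were higher there too (-1.71 ± 0.20, -1.68 ± 0.28 and -1.25 ± 0.20). A second detected Efna5 probe read only -0.39. Efnb2, another ephrin, read 9.15, 6.98 and 7.17 in lung and 9.42, 9.32 and 9.15 in esophagus. On lung 1 it stood at the esophagus level, so the difference of -1.53 ± 0.42 became -2.22 without that array. It was not called without lung 2 or lung 3 (adjusted p = 0.0851 and 0.0699). The netrin receptor Unc5b and the ephrin Efna1 were higher in lung (1.39 ± 0.18 and 1.08 ± 0.12).

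Other gene families were counted in the same way. Of 9 annexins, calcium-dependent membrane binders, 5 were higher in esophagus and 0 in lung (median -1.79), with 6 measured lower and 3 higher in lung whether called or not. Anxa1 was detected on 1 of 3 lung arrays and read 9.66, 9.98 and 9.33 in esophagus (-3.43 ± 0.20), and Anxa2 read 11.07, 11.42 and 11.52 in lung and 13.68, 13.56 and 13.17 in esophagus (-2.13 ± 0.23). Among 7 S100 genes, 3 were higher in esophagus, including S100a10, the partner of annexin A2 (-2.13 ± 0.37). Of 6 insulin-like growth factor binding genes, 3 were higher in esophagus, Igfbp2, Igfbp4 and Igfbp5, and the other 3 were not called. Of 3 nuclear factor I genes tested, Nfix was higher in esophagus at -3.03 ± 0.20 and Nfib at -1.45 ± 0.27, while Nfic, at -0.83 (adjusted p = 0.00661), stayed under the fold minimum. A second detected Nfix probe read only -0.44. Of 191 solute carriers, 7 were called, 6 higher in lung and 1 higher in esophagus, a smaller share than the 6.08% called over all genes tested.

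In lung, growth genes were among those called. Of 14 imprinted growth genes, 4 were higher in lung and 0 in esophagus (median 0.48). Dlk1, a non-canonical member of the Notch ligand family, read 11.13, 11.07 and 10.54 in lung and 8.49, 8.10 and 8.43 in esophagus (2.57 ± 0.27, adjusted p = 8.41e-08). Cdkn1c, a brake on the cell cycle, and the growth suppressor gene Phlda2 were higher by 1.35 ± 0.22 and 1.18 ± 0.27. Peg3 was called at 1.13 ± 0.41 (adjusted p = 0.0495) and was not called without lung 1 (adjusted p = 0.132), nor in 4 of the 5 other fits without 1 array (0.0517 to 0.174). Of 26 cell cycle genes, 4 were higher in lung, the cyclins Ccnd1 (1.64 ± 0.15) and Ccne1, the nucleotide enzyme Rrm2 and the mitotic kinase Plk1 (1.15 ± 0.26, or 0.99 without lung 2 and 0.95 without esophagus 3). Ccnd2, another D-type cyclin, was higher in esophagus, with 12.06, 11.12 and 11.58 in lung and 13.34, 13.38 and 13.05 in esophagus (-1.67 ± 0.36).

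Further genes ranked high by size. In lung these were the carboxylesterase gene Ces1d (3.98 ± 0.18), with 10.95, 11.34 and 11.26 against 7.44, 7.0 and 7.19 in esophagus, and the fatty acid receptor gene Ffar4 (3.36 ± 0.16). Cdh16, an epithelial cadherin, read 9.46, 9.89 and 9.89 in lung and was detected on no esophagus array, at least 11-fold higher. The stem cell factor Sall4 and the membrane protein gene Igdcc3 were higher by 3.06 ± 0.21 and 3.05 ± 0.36. The glucose transporter gene Slc2a3 read 11.83, 9.88 and 10.34 in lung and 7.88, 7.39 and 7.36 in esophagus (3.14 ± 0.37), or 2.56 without lung 1. Rfx6, known from pancreas and gut endocrine cells, read 9.66, 8.30 and 8.64 in lung and was detected on no esophagus array, at least 5.96-fold higher, with stomach at 9.84, 9.38 and 9.42.

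In esophagus, Ifitm3, an interferon-induced membrane protein gene, read 7.80, 8.51 and 8.55 in lung and 12.42, 12.58 and 12.44 in esophagus (-4.20 ± 0.27, 18.4-fold). The small heat shock gene Hspb1 read 6.66, 6.64 and 6.60 in lung and 10.36, 9.92 and 9.81 in esophagus (-3.40 ± 0.18). Fxyd3, a regulator of the sodium pump, and the lipid transfer gene Pltp differed by -3.28 ± 0.18 and -3.01 ± 0.17, with a second detected Pltp probe at -1.06. No lung array reached the esophagus level for these 4 genes. The immediate early genes, which tissue handling induces, went both ways, with Jun higher in lung (1.49 ± 0.25) and Fos in esophagus (-1.99 ± 0.63, adjusted p = 0.024). Fos was not called in 4 of the 6 fits without 1 array, among them those without lung 1 (adjusted p = 0.0784) and without esophagus 1 (0.156).

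Stomach levels lay nearer to lung for most genes of the esophagus side. Of the 369 genes higher in esophagus, the stomach mean was nearer to lung in 288 and nearer to esophagus in 81. Of the 218 genes higher in lung, it was nearer to lung in 103 and nearer to esophagus in 115. These counts are a description with no test, since genes are not independent replicates. For Krt15 stomach read 7.02 to 7.65, near lung, and for Sox21 and Klf5 it lay near or above esophagus.

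Without lung 1 the calls became more numerous. Of 773 genes called then, 257 were higher in lung and 516 higher in esophagus, and 546 were shared with the 587 called on all arrays. All 587 kept the sign of their difference, and 5 of them moved by more than 1.5-fold. The 587 were selected at a 2-fold difference with lung 1 included, and the fit without it reuses the remaining arrays. Kept signs were thus largely built in and are no independent check. Of the named genes, 10 were no longer called, 7 of those higher in lung and 3 of those higher in esophagus. Beside those given above, these were Tnfrsf19 at 0.87, Scd1 at 0.77, Kcnab1 at 0.98 and Igfbp4 at -0.94. Igfbp4 was also lost without esophagus 3, at -0.98.

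**Figure D5:**
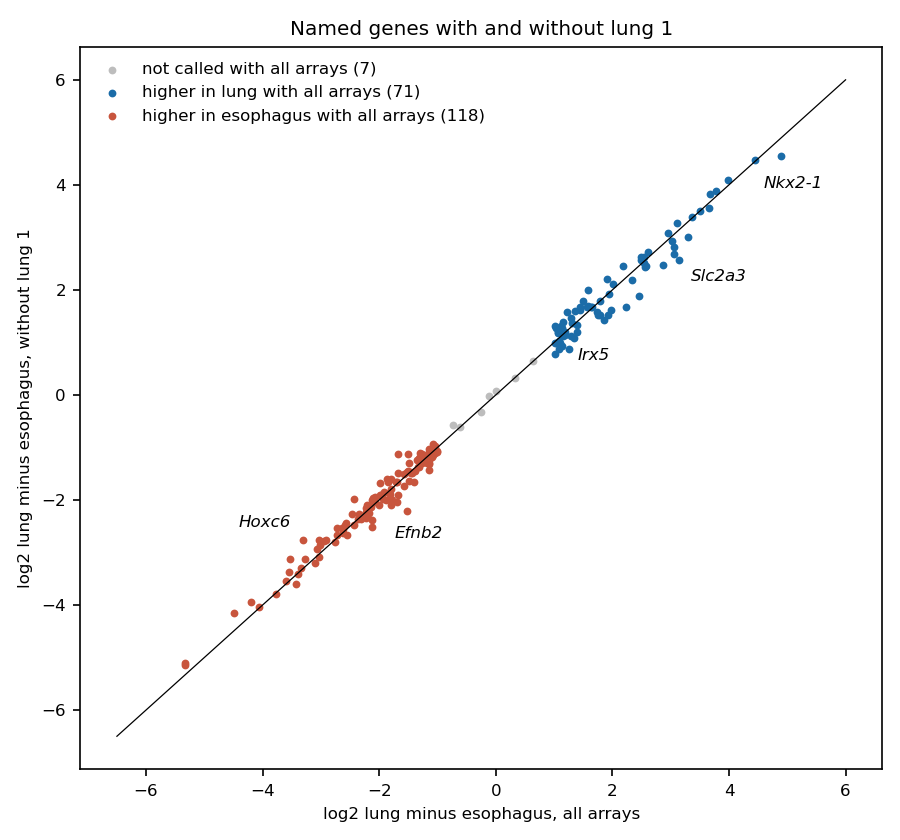
Log2 difference of the 196 named genes with lung 1 left out (vertical axis) against the difference on all arrays (horizontal axis), 1 point per gene, with the line of equal values. The points stay close to the line, Efnb2 lies below it at -2.22 against -1.53, and Irx5 and Slc2a3 lie below it at 0.87 against 1.26 and 2.56 against 3.14.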

How the data were processed

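Trizol-extracted RNA was amplified (TotalPrep kit) and biotin-labelled for bead arrays of the type MouseRef-8 v2, per the labels and the series design text. The deposited values are linear probe intensities, 25697 probes on 28 arrays, and BeadStudio is named, with no version, in the submitters' processing notes. The authors' scaling and background steps remain unknown. A further table of 112 columns was not used, because no label gives its array identifiers.

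The deposited intensities were corrected by normexp with an offset of 50 and no control probes, quantile-normalized across the 28 arrays and taken to log2. Of the probes, 23978 carried 1 gene symbol, 0 several and 1719 none, and the probe with the highest mean stood for each of 16593 symbols. A gene was tested if detected on every array of at least 1 of 9 groups, which left out 6942. Limma 3.58.1 in R 4.3.3 fitted 9 group means without covariates (19 residual degrees of freedom), with Benjamini-Hochberg adjustment over 9651 genes. The pipeline was tested on simulated data. Bounds set the bright group's mean against the dim arrays' thresholds.

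Named genes are, per direction, the 12 largest called differences detected on all arrays and the 12 largest bounds, the called members of the lists, and 30 anchors, together 196. The members and lists were chosen with earlier results of these data known, so counts per list are descriptions. The groups are labelled biological replicates, and precision is limited by their number. Alternatives covered the background correction, normalization, filter, probe choice, blocks, array weights and each array left out.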

Additional observations from a re-analysis of the deposited data

How the results depend on the processing

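Alternative settings, 25 in number, gave 4725 values for the 189 named called genes. Of these values, 4584 kept direction and call, 141 kept direction but lost the call and 0 reversed. The genes were selected as called on the same arrays, so kept directions were largely built in and are no independent check. Under every setting, 147 genes were called. Aldh1a7 lost its call under 16 settings, and its lung arrays read 8.86, 6.04 and 9.87 (-0.68 without lung 2). Peg3 lost its call under 12 and Tnfrsf19 under 9. Without background correction 961 genes were called, 366 higher in lung and 595 higher in esophagus, and without the fold minimum 2105, 934 and 1171. A smaller offset of 16 gave 839. Leaving out 1 array at a time gave 543 to 773 calls, 204 to 257 in lung and 339 to 516 in esophagus. Arrays with an intensity over 20000 alone gave 810 calls, their class as a block 799, array weights 819 (the weights stopped before full convergence) and the mean of the probes 484. The sign of Foxa1, which was not called, turned to 0.041 with scaling to the 75th percentile, 0.031 with the class as a block, 0.075 within that class, 0.089 with array weights, 0.075 without lung 1 and 0.221 without esophagus 1; over the 6 fits without 1 array it ran from -0.139 to 0.221. Nog, detected on no array, turned to 0.053 with array weights. The cause was not tested. Lung and esophagus share replicate numbers, and deviations of same-numbered arrays correlated at 0.041, -0.118 and 0.18. Differently numbered arrays ran from -0.212 to 0.185. With 3 arrays per tissue, these values cannot decide whether the numbers pair the samples. A replicate block gave 589 genes called, 218 in lung and 371 in esophagus. A second probe counted as detected if it was so on all 3 arrays of lung or of esophagus. Probes detected in 1 tissue only thus entered through the tissue where they were high, so shared signs were partly built in. Of 65 second detected probes of 46 named genes, 65 had the sign of the probe used, but 27 lay under the fold minimum. Beside those given above, these included probes of Fzd10 (-0.40), Porcn (0.51), Pkp2 (0.51 and 0.71), Tfap2a (-0.49) and Tfap2c (-0.68). Genes below detection have only bounds.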

Other observations

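Some genes that neighbour each other on a chromosome were called together. In the RefSeq table of GRCm38.p6, 5305 pairs of adjacent protein-coding genes had both members tested. Only 1 member was called in 547 pairs, beside 6.08% of all genes tested. Both were called in 42 pairs, 37 in the same direction and 5 in opposite directions. Of the 37 pairs, 14 were higher in lung and 23 higher in esophagus. These are counts without a test. Mbip, beside Nkx2-1, was higher in lung by 1.75, and of the genes on either side of Sftpc, Bmp1 was higher by 1.84 and Lgi3, with no esophagus array detected, by at least 5.01-fold. Irx1 with Irx2, and Irx3 with Irx5, were pairs of the same kind. In esophagus such pairs were Krt15 with Krt19, Ifitm1 with Ifitm3, S100a11 with S100a10, Lypd6b with Lypd6 and Tfap2c with Bmp7. An opposite pair was Trp63, at -4.49, and P3h2, at least 1.99-fold higher in lung and detected on no esophagus array.

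A few strong genes fell outside the rule for named genes because their dim tissue was detected on some arrays only, and they were chosen after their values were seen. Mia, a secreted protein first known from melanoma, read 10.39, 10.50 and 10.24 in lung and 6.20, 6.23 and 6.41 in esophagus, where it was detected on 1 of 3 arrays (4.10 ± 0.37). The matrix gene Matn4 differed by 3.47 ± 0.25. In esophagus, the lipoxygenase gene Alox12 differed by -3.39 ± 0.19. The homeobox gene Otx1, known from the forebrain, read 10.72, 8.61 and 9.04 in esophagus and was detected on 1 of 3 lung arrays (-3.24 ± 0.39).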
